A study of Mus musculus with 8 samples.

Results

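The hyaluronan matrix genes of cumulus expansion are a group of 7 genes, Has2, Ptx3, Tnfaip6, Vcan, Cd44, Hapln1 and Itih5, chosen by name from the 41591 gene IDs counted in each library. They were followed in whole ovaries of female C57BL/6 mice of about 3 weeks, in 4 libraries from a conditional double knockout (DKO) of Insr and Igf1r, the receptor genes for insulin and for insulin-like growth factor 1, and 4 from littermate controls, labelled wild-type and positive for Pgr-Cre. All mice of both groups were superovulated: equine chorionic gonadotropin (4 IU) was followed after 48 h by hCG, human chorionic gonadotropin (5 IU), a substitute for the luteinizing hormone surge. Ovaries were removed 12 h after hCG, close to ovulation. The labels name the Cre allele for the controls alone, and the question stated by the study is which genes near ovulation are regulated by insulin. The study gives 4 per group without saying whether each library is 1 mouse, so p-values measure the spread between these libraries. Cre driven by the progesterone receptor gene acts in the cells of the ovary that have expressed that gene, so a whole ovary also holds cells with intact receptors.

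Cumulus cells surround the oocyte, and after the hormone surge they secrete hyaluronan, a long sugar chain that swells into a soft matrix and carries the oocyte out of the follicle. In the mouse, HAS2 at the cell membrane makes the chain. TSG-6, the product of Tnfaip6, moves heavy chains of the serum protein inter-alpha-trypsin inhibitor onto it, and pentraxin 3 from Ptx3 holds those heavy chains together. Versican from Vcan is a large proteoglycan that binds hyaluronan, the link protein HAPLN1 locks such proteoglycans to the chain, and CD44 is a cell surface receptor for it. Itih5 belongs to the family of heavy chain genes.

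The promoter sequences of 3 members are shown because these genes behaved in 3 ways: Vcan was the member that passed the test, Tnfaip6 had the widest range over the libraries, and Hapln1 was the member whose 4 DKO values lay above the 4 control values. Each is the 250 bases before the RefSeq start in the table of assembly GRCm38.p6, read 5′ to 3′ on the gene's own strand, with any motif found in capitals. For Vcan and Hapln1 that start lies inside the interval counted in the files.
Vcan (chr13:89742513-89742762, minus strand): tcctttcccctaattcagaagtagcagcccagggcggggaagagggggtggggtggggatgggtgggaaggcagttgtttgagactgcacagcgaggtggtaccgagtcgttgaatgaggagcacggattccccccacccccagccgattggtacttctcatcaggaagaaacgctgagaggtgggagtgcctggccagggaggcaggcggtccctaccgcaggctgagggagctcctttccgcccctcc
Tnfaip6 (chr2:52037863-52038112, plus strand): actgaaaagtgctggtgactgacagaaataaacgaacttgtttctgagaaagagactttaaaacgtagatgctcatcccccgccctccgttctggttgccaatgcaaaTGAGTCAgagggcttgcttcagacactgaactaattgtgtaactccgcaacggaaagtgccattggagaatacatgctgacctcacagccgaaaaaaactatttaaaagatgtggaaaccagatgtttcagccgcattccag
Hapln1 (chr13:89540386-89540635, plus strand): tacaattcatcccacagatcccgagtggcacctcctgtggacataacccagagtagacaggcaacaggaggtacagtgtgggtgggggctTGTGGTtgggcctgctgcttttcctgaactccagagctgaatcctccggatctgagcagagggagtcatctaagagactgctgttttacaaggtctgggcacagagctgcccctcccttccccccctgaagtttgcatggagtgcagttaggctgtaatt
The table held 6 of the 7 members, all but Has2. These 6 windows were searched on both strands for 7 motifs. The motifs were the CRE core TGACG, the AP-1 site TGANTCA, the FOXO site GTAAACA and the RUNX site TGTGGT. The others were the NR5A site AAGGTCA, the TATA box TATAAA and a kappa B pattern. That pattern differed from the usual kappa B consensus, so sites that match the consensus alone were not searched for. Tnfaip6 held the AP-1 letters TGAGTCA, 142 to 136 bases before the start, and 6.75% of 32851 promoter windows of the same length held an AP-1 match. Hapln1 held the RUNX letters 160 to 155 bases before the start, a match that 14.0% of windows had. The shares for the other motifs were 17.8% (CRE core), 0.98% (kappa B), 3.17% (FOXO), 4.08% (NR5A) and 12.4% (TATA box). Vcan, Ptx3, Cd44 and Itih5 held none of the 7 motifs in this window, and the matches in Tnfaip6 and Hapln1 overlapped no other motif. Vcan and Hapln1 are neighbours on chromosome 13, with 43477 bases and no other annotated gene between them. They lie on opposite strands with their 3′ ends facing each other.

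The libraries were of even depth, with 33145056 to 39257648 counts. Insr was at 112 to 148 CPM (counts scaled to library size with TMM factors) in DKO and 140.0 to 162 CPM in controls, and Igf1r at 199.6 to 247 CPM in DKO and 196 to 263.3 CPM in controls. Neither passed the test (adjusted p = 0.226 and 0.639), and counts over whole genes do not show a deleted exon. The 10 granulosa and cumulus markers summed to 4144 to 5184 CPM in DKO and 3716 to 4848 CPM in controls. That sum is led by Inha (means of 1640 CPM in DKO and 1482 CPM in controls) and Gja1 (1494 and 1509 CPM). Of the 10, 9 had enough counts to be tested, and Cbln1, with means of 0.20 CPM in both groups, did not. The sum does not separate cumulus cells from other granulosa cells. The libraries did not fall apart by genotype alone. DKO 1, DKO 2 and control 1, titled FINS_201, FINS_202 and FINS_167, lay at -58.01 to -36.93 on the first principal component, which held 38.3% of the variance. DKO 3, DKO 4 and controls 2 to 4, titled FINS_249 to FINS_263 and called the later-numbered libraries here, lay at 14.04 to 42.77. The labels do not explain these title numbers. On the second principal component, which held 24% of the variance, the DKO libraries lay at 4.85 to 42.28 and the controls at -51.78 to 4.65. DKO 2 and control 3 were close together there. In DKO 1, DKO 2 and control 1 the 10 oocyte markers summed to 132 and 157 CPM (DKO) and 125 CPM (control), against 274 and 446 CPM in DKO 4 and DKO 3 and 339 to 455 CPM in controls 2 to 4. Markers of oviduct and surface epithelium summed to 1069 CPM in DKO 2 and 1751 CPM in control 1, against 119 to 161 CPM in the other 6. DKO 1 and DKO 2 also stood apart in 2 red blood cell markers, singled out after their values were seen. Hbb-bs was at 0.609 and 1.06 CPM there, against 105 to 442 CPM elsewhere, and Hbb-bt at 0.178 and 0.0883 CPM, against 22.1 to 85.95 CPM. Hba-a1 was not low in them, at 103 and 248.5 CPM against 73.6 to 171 CPM elsewhere. The part of these differences in the results was not tested, and results of the members and of the hyaluronan and luteal lists are given for all 8 libraries and for the 5 later-numbered ones.

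In DKO ovaries 6 of the 7 members had a lower fitted level than in controls and 1, Hapln1, had a higher one. Vcan alone passed the test over all genes, and 53.1% of all genes had a fold change below 0. The median log2 fold change, DKO over control, was -0.97 over the 7 members and -0.02 over all 16870 genes tested. By edgeR's quasi-likelihood test with Benjamini-Hochberg adjustment over all genes at 0.05, 1 member of 7 was called lower, where 0.498% of all genes were called lower, and 0 were called higher, where 0.759% were (1.26% in either direction). At an unadjusted p under 0.05 there were 2 members lower and 1 higher, 3 of 7 where 15.4% of all genes passed. DESeq2 called 2 members lower and 1 higher where it called 6.56% of all genes. Limma-voom with sample quality weights called 1 lower and 1 higher where it called 9.79%. All 7 members passed the filter on low counts. The 4 DKO values lay below the 4 control values for Vcan and Cd44, as for 3.54% of all genes, and above them for Hapln1, as for 5.7% (9.24% in either direction). Whole ovary RNA cannot separate fewer cumulus or granulosa cells from less RNA in each.

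**Figure D1:**
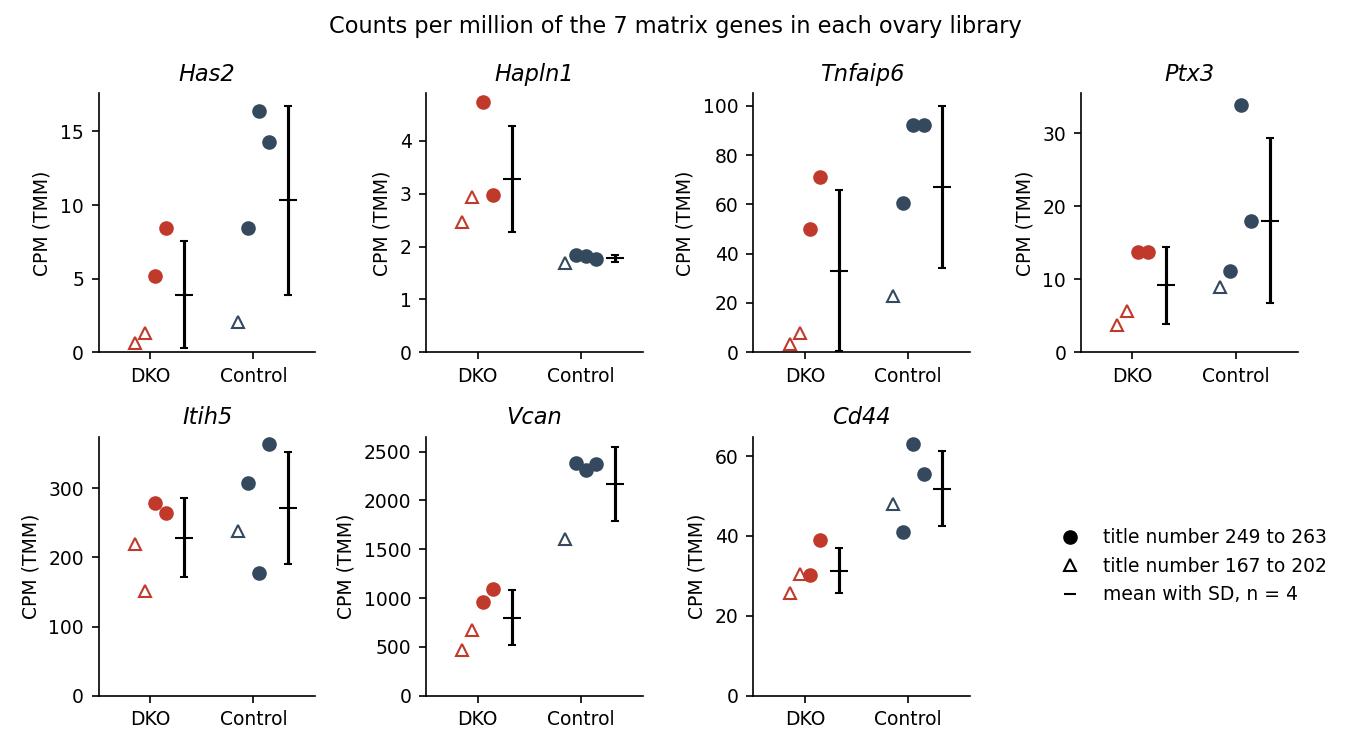
CPM of each matrix gene in the 4 DKO and 4 control libraries, with linear axes from 0. Points are libraries, open triangles those titled FINS_167 to FINS_202, and bars the mean with SD. For Vcan all DKO points lie below all control points, for Hapln1 all lie above, and for Has2, Tnfaip6 and Ptx3 the groups overlap.

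Has2 (gene ID 15117, chromosome 15, 56665627 to 56694546, minus strand), the hyaluronan synthase gene, was at 0.635, 1.33, 5.20 and 8.44 CPM in DKO 1 to 4, against 2.07, 8.45, 16.4 and 14.3 CPM in controls 1 to 4. DKO 1, DKO 2 and control 1 were the 3 lowest libraries, and DKO 4 was level with control 2. In DKO 1 and DKO 2 the values rest on 25 and 45 counts. The log2 fold change was -1.40 ± 0.85 (adjusted p = 0.491), and -0.92 ± 0.33 (0.298) in the later-numbered libraries. Over the 20 alternatives it ran from -2.11, without DKO 4, to -0.92 in the later-numbered libraries. With the replicate number set as a block it was -1.67 ± 0.31 (adjusted p = 0.0318), in a fit that called 743 genes. That was the 1 alternative that called Has2, and whether these numbers pair the libraries is not settled. Has2 is overlapped over 182 exonic bases by the antisense gene Has2os, which had 0 to 4 counts in any library, and per the file headers the counting used strand.

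Tnfaip6 (gene ID 21930, chromosome 2, 52038113 to 52056681, plus strand), the TSG-6 gene, was at 3.50, 7.92, 50.1 and 71.0 CPM in DKO 1 to 4, against 22.9, 60.5, 92.3 and 92.2 CPM in controls 1 to 4. DKO 1 and DKO 2 stood far below all others, and DKO 4 was above 2 of the controls. The log2 fold change was -1.02 ± 0.90 (adjusted p = 0.659). It was -0.41 ± 0.23 (0.558) in the later-numbered libraries, with means of 60.5 CPM in DKO and 81.7 CPM in controls. Over the 20 alternatives it ran from -1.74 with limma-voom to that value, with -1.71 without DKO 4 and -0.64 without DKO 1, and 0 of the 20 called it.

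Ptx3 (gene ID 19288, chromosome 3, 66219887 to 66225806, plus strand), the pentraxin 3 gene, was at 3.73, 5.62, 13.7 and 13.7 CPM in DKO 1 to 4, against 8.95, 11.2, 34.0 and 18.0 CPM in controls 1 to 4. DKO 3 and DKO 4 lay between the control values, and control 3 was highest. The log2 fold change was -0.97 ± 0.53 (adjusted p = 0.441), -0.60 ± 0.40 (0.669) in the later-numbered libraries and -0.46 ± 0.49 (0.651) without control 3. That library also had the highest neutrophil marker sum, 30.8 CPM, and human neutrophils store pentraxin 3. The part of neutrophils in the Ptx3 values was not tested. With the replicate number set as a block the Ptx3 log2 fold change was -0.98 ± 0.18 (adjusted p = 0.0295), the 1 alternative that called it.

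Itih5 (gene ID 209378, chromosome 2, 10153536 to 10256529, plus strand), the heavy chain family gene, was at 220, 152, 278 and 265 CPM in DKO 1 to 4, against 238, 307, 177 and 363 CPM in controls 1 to 4. The groups overlapped widely and control 3 was lower than 3 of the DKO libraries. The log2 fold change was -0.25 ± 0.24 (adjusted p = 0.693), and -0.04 in the later-numbered libraries, so the heavy chain gene was the member with the smallest difference.

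Vcan (gene ID 13003, chromosome 13, 89655310 to 89742694, minus strand, GRCm38.p5) stood at 473, 668, 964 and 1097 CPM in DKO 1 to 4, against 1602, 2385, 2310 and 2375 CPM in controls 1 to 4. The highest DKO library was below the lowest control library, and within each group the lowest values were those of DKO 1, DKO 2 and control 1. The mean was 800.3 ± 282 CPM in DKO and 2168 ± 379 CPM in controls (SD, n = 4 each), so that the level fell by 63.1% in DKO. Its log2 fold change was -1.44 ± 0.26 (SE, adjusted p = 0.035). In the 5 later-numbered libraries, 2 DKO against 3 controls, it was -1.18 ± 0.17 (adjusted p = 0.026, where 0.982% of genes passed). With the title number set as a block, a fit added after seeing the data, it was -1.30 ± 0.14 (adjusted p = 0.00429, where 3.12% passed). The call was lost without control 2 (adjusted p = 0.137), control 4 (0.111), DKO 1 (0.0563), DKO 2 (0.0929) or DKO 3 (0.095), while over all 20 alternatives the adjusted p ran from 2.47e-06 to 0.137. Versican is made in splice forms with and without its sugar-bearing regions, and these counts over 17 merged exon blocks do not separate them.

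Hapln1 (gene ID 12950, chromosome 13, 89540528 to 89611832, plus strand) encodes the link protein. It stood at 2.46, 2.94, 4.75 and 2.99 CPM in DKO 1 to 4, against 1.69, 1.84, 1.82 and 1.77 CPM in controls. The control values were close together and every DKO value was above them. These CPM rest on 97, 100, 180 and 104 counts in DKO and 58 to 66 counts in controls. The log2 fold change was 0.88 ± 0.26 (adjusted p = 0.141), and 1.11 ± 0.29 (0.153) in the later-numbered libraries. DESeq2 (0.0249, where 6.56% of genes passed) and limma-voom with sample quality weights (0.0384, where 9.79% passed) called it higher. The weighted fit gave control 2 a weight of 4.24 and the other libraries 0.355 to 1.52. For Hapln1 the adjusted p ran from 0.0249 to 0.346 over the 20 alternatives. Per kilobase of exon, Vcan exceeded Hapln1 by 64.5 to 123 times in DKO libraries and by 318 to 451 times in control libraries.

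Cd44 (gene ID 12505, chromosome 2, 102811141 to 102901669, minus strand) was at 25.7, 30.4, 30.2 and 39.03 CPM in DKO 1 to 4, against 47.9, 41.0, 62.9 and 55.6 CPM in controls 1 to 4. The groups did not overlap, although DKO 4 and control 2 were close. The log2 fold change was -0.73 ± 0.16 (adjusted p = 0.0658), so the receptor gene did not pass, and -0.60 ± 0.21 (0.28) in the later-numbered libraries. It passed in 4 of the 20 alternatives, among them DESeq2 (adjusted p = 0.00237), no filter on low counts (0.0426) and the title number set as a block (0.0492), and its adjusted p ran from 0.00237 to 0.28 over the 20. Cd44 is also a well-known leukocyte gene. The 8 neutrophil markers summed to 3.38 to 5.57 CPM in DKO and 5.96 to 30.8 CPM in controls, and the 8 macrophage markers to 141 to 192 CPM in DKO and 161 to 221 CPM in controls. Of the neutrophil markers 6 were tested and 0 passed edgeR's test, while DESeq2 called 3 lower. All 6 were lower at an unadjusted p under 0.05 (median log2 fold change -1.67), a p that 15.4% of all genes had in either direction. The part of these cells in the Cd44 values was not tested.

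A two-sided exact permutation test of log2(CPM + 1) ran over the 70 assignments of libraries to groups. For Vcan, Cd44 and Hapln1 it gave an unadjusted p = 0.0286 each, the smallest that 4 against 4 can give. Any gene whose groups do not overlap gets this p, as 9.24% of all genes tested did. It therefore restates the lack of overlap. The exact permutation p was 0.171 for Has2, 0.2 for Ptx3 and for Tnfaip6, and 0.457 for Itih5.

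**Figure D2:**
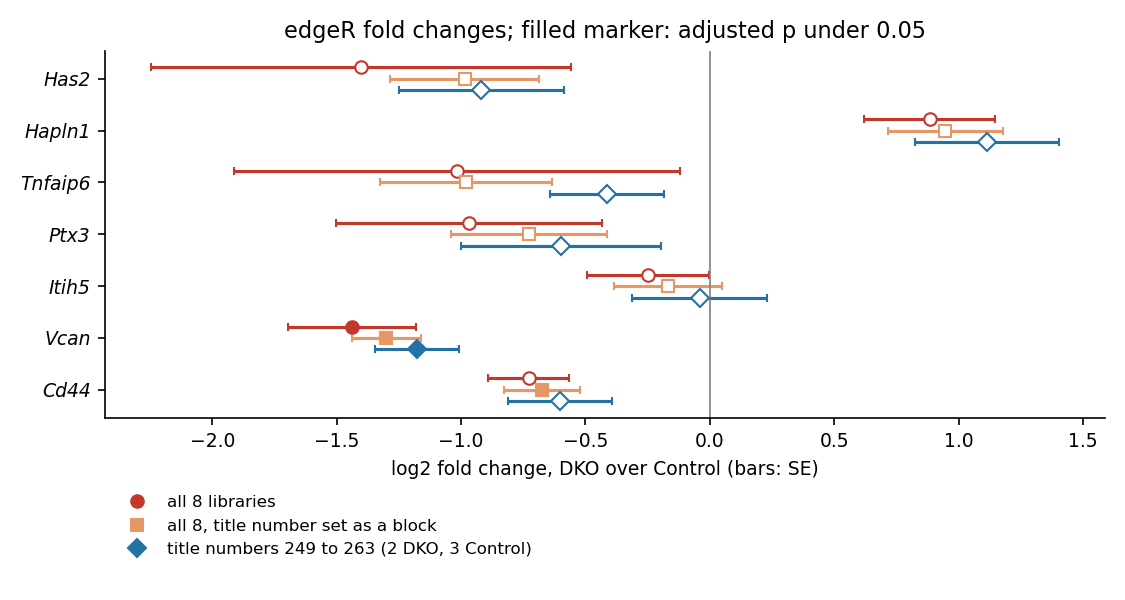
Log2 fold changes of the 7 genes, DKO over control, with SE bars, from edgeR fits of all 8 libraries, of all 8 with the title number set as a block, and of the 5 later-numbered libraries. Filled markers have an adjusted p under 0.05: Vcan is filled in all 3 fits, Cd44 with the block, and the point for Tnfaip6 moves from -1.02 with all libraries to -0.41 in the 5.

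The members differed in how far they varied among libraries of the same group. The within-group SD of log2 CPM was 1.61 for Tnfaip6 and 1.52 for Has2, and 0.86% and 1.04% of tested genes varied more. It was 0.90 for Ptx3, 0.43 for Vcan, 0.42 for Itih5, 0.28 for Hapln1 and 0.26 for Cd44, where the median over all tested genes was 0.27. Has2 was 6.96-fold higher in DKO 3 and 4 than in DKO 1 and 2, and 6.31-fold higher in controls 2 to 4 than in control 1. The same ratios were 10.6-fold and 3.57-fold for Tnfaip6 and 2.94-fold and 2.35-fold for Ptx3. They were smaller for Vcan (1.81-fold and 1.47-fold), Hapln1 (1.43-fold and 1.07-fold), Itih5 (1.46-fold and 1.19-fold) and Cd44 (1.23-fold and 1.11-fold). These ratios set apart libraries that differ in title number and, in the controls, rest on 1 library, so no test was made.

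**Figure D3:**
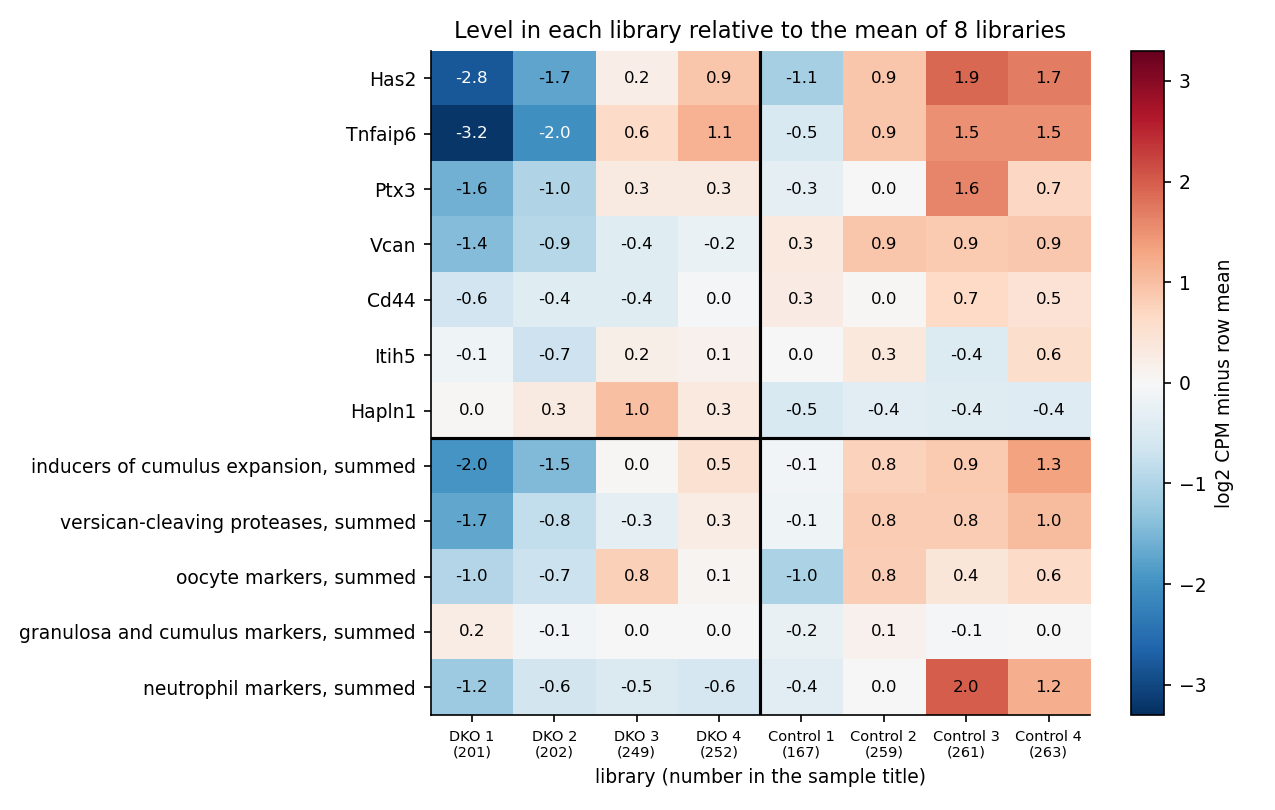
Heat map of log2 CPM minus the row's mean over 8 libraries, for the 7 matrix genes and for the summed CPM of 5 gene lists, with DKO libraries left of control libraries and title numbers in brackets. Has2 and Tnfaip6 are lowest in DKO 1 (-2.81 and -3.20), Vcan is below 0 in all 4 DKO and above 0 in all 4 control libraries, and the oocyte markers are lowest in control 1, DKO 1 and DKO 2.

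To order the members by level, CPM were divided by exon length in kilobases. In DKO, Vcan came first with 52.1 ± 18.4 CPM per kilobase, followed by Itih5 with 28.8 ± 7.18 and Tnfaip6 with 20.7 ± 20.5 (SD, n = 4). Cd44 followed with 5.45 ± 0.969, Ptx3 with 4.79 ± 2.75, Has2 with 0.918 ± 0.856 and Hapln1 with 0.636 ± 0.194. In controls the order was Vcan (141 ± 24.7), Tnfaip6 (41.8 ± 20.6), Itih5 (34.2 ± 10.2), Ptx3 (9.37 ± 5.88), Cd44 (9.03 ± 1.65), Has2 (2.43 ± 1.52) and Hapln1 (0.344 ± 0.012). Itih5 and Tnfaip6, and likewise Cd44 and Ptx3, did not differ beyond their spread in either group, and Has2 and Hapln1 did not in DKO. Vcan was the highest member in all 8 libraries, by the least in DKO 1, where it stood at 30.8 and Itih5 at 27.7. By mean level per kilobase Vcan ranked 1318 in DKO and 384 in controls among 16870 genes. Of the summed CPM of the 7 members, not divided by length, Vcan held 64.9 to 77% in DKO and 81.3 to 85.7% in controls. These shares are raised by its exon length, the longest of the 7 (15.4 kilobases, against 1.6 for Tnfaip6).

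The genes whose pattern over the 8 libraries was most like that of a member were sought among the 11564 or 11565 other genes that averaged 5 CPM or more, by the mean absolute difference of log2 CPM after each gene's own mean was removed. For Has2 they were Il6 (0.16), F3 (0.24) and Tnfsf15 (0.29), where the median gene differed by 1.38. For Tnfaip6 they included Has2 and Areg, both at 0.32 (median 1.42), and for Ptx3 they were Junb (0.15), Tmem252 (0.16) and Mis18a (0.18) (median 0.73). For Vcan they were Arl4d (0.10), Crispld2 (0.11) and Il1rl2 (0.12) (median 0.76). For Hapln1 they were Reep6 (0.12), Hacd3 (0.13) and Adh1 (0.13) (median 0.44). Cd44 and Itih5 varied too little for this search and enter the pairs of members alone. Between members the closest pair was Has2 and Tnfaip6 (0.32) and the next was Vcan and Cd44 (0.38), while Has2 and Hapln1 were farthest apart (1.54). This measure also grows with each gene's own spread, and the 1.54 was near the 1.38 by which the median gene differed from Has2.

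Other hyaluronan genes were examined by lists. Over all genes tested in the 8 libraries, 15.4% had an unadjusted p under 0.05 in edgeR and 53.1% had a fold change below 0. DESeq2 called 6.56%. These shares stand beside the counts of each list here and below. Of 9 genes that make hyaluronan or its sugar precursors, 0 passed edgeR's test, 2 had an unadjusted p under 0.05 (both lower) and 0 passed DESeq2 or limma-voom. Of the list 3 were above 0 and 6 below (median -0.30, log2 fold change). Ugdh, whose enzyme makes the precursor UDP-glucuronic acid, had the highest level per kilobase of the list, and stood at 108 to 236 CPM in DKO and 167.5 to 295 CPM in controls (-0.63 ± 0.27, adjusted p = 0.298). Gfpt2, an enzyme gene of the amino sugar branch, had the smallest adjusted p, with 38.7 to 90.3 CPM in DKO and 72.3 to 118 CPM in controls (-0.72 ± 0.28, adjusted p = 0.252). Has1, another synthase gene, singled out after its values were seen, was at 0.305, 0.972, 26.2 and 26.4 CPM in DKO 1 to 4, against 7.92, 25.1, 41.4 and 46.7 CPM in controls 1 to 4 (-1.17 ± 1.20, adjusted p = 0.713). DKO 1 and DKO 2 stood far below the rest, as for Tnfaip6. Per kilobase, Has1 averaged 4.88 ± 5.37 CPM in DKO and 10.97 ± 6.34 CPM in controls, above Has2 in 7 of 8 libraries, with a ratio of 0.738 in DKO 1 and 1.13 to 7.75 elsewhere.

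Of 6 genes of hyaluronan breakdown, 5 were tested and 0 passed edgeR's test, with 3 above 0 and 2 below (median 0.11), 2 at an unadjusted p under 0.05 and 1 called higher by DESeq2. Cemip, whose human counterpart is needed for hyaluronan breakdown in skin fibroblasts, had both the smallest adjusted p and the highest level per kilobase of this list. It was at 573, 637, 302 and 444 CPM in DKO 1 to 4, against 156, 201.4, 310 and 290 CPM in controls 1 to 4 (1.03 ± 0.27, adjusted p = 0.11). DKO 1 and DKO 2, the libraries lowest in Has2, were the highest in Cemip, and DKO 3 overlapped the controls. Control 1, the next lowest in Has2 (2.07 CPM), was by contrast the lowest library in Cemip. Of the other inter-alpha-trypsin inhibitor genes, 3 of 5 were tested and 0 passed edgeR's test, DESeq2, limma-voom or an unadjusted p under 0.05 (median -0.38). Itih2 led them, with 14.0 to 27.8 CPM in DKO and 21.5 to 39.01 CPM in controls (-0.47 ± 0.23, adjusted p = 0.388), and Ambp, the light chain gene, had at most 0.031 CPM in any library. Inter-alpha-trypsin inhibitor is made in the liver and reaches the follicle in serum, which these data do not measure.

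Of 6 other hyaluronan-binding proteoglycan and link protein genes, 3 were tested and 0 passed edgeR's test, with 1 at an unadjusted p under 0.05 and called by DESeq2 (median 0.13). Bcan, the brevican gene, was at 10.5 to 17.5 CPM in DKO and 5.58 to 9.46 CPM in controls (0.79 ± 0.23, adjusted p = 0.13), and its groups did not overlap. Of 7 other hyaluronan receptor genes 0 passed edgeR's test, 5 had an unadjusted p under 0.05 (2 higher, 3 lower) and DESeq2 called 2 higher and 1 lower (median -0.17). Layn, the layilin gene, was at 27.5 to 39.3 CPM in DKO and 42.3 to 51 CPM in controls (-0.53 ± 0.14, adjusted p = 0.0995). Stab1, a scavenger receptor gene of endothelium and macrophages, was at 130.5 to 138 CPM in DKO and 80.5 to 115 CPM in controls (0.40 ± 0.11, adjusted p = 0.131).

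**Figure D4:**
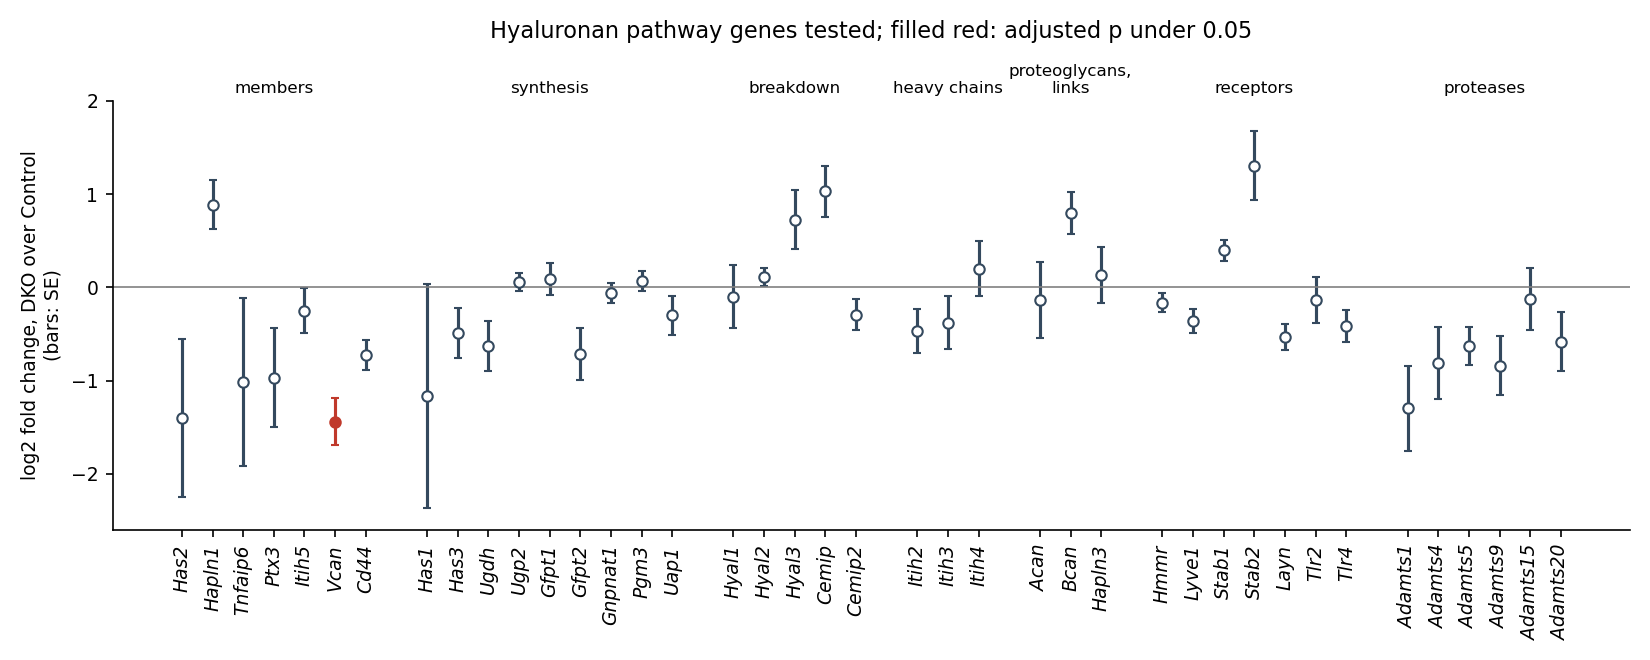
Log2 fold changes, DKO over control, with SE bars, of the hyaluronan genes tested, grouped by role; the few that failed the filter on low counts are not drawn. The filled red point, Vcan, is the gene with an adjusted p under 0.05; the 6 proteases lie below 0, and Cemip, Bcan, Stab2 and Hapln1 lie above it.

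Genes that act on the matrix from either side were given as lists. All 6 genes of proteases that cleave versican had a fold change below 0 (median -0.72), as 53.1% of all genes did, and 0 passed edgeR's test. Of the 6, 3 had an unadjusted p under 0.05, as did 15.4% of all genes, and DESeq2 called 1 lower. Adamts1, the highest of them per kilobase, was at 358, 789.6, 1107 and 1635 CPM in DKO 1 to 4, against 1137, 2672, 2798 and 2961 CPM in controls 1 to 4, and the groups overlapped through control 1. Adamts5 had the smallest adjusted p, with 28 to 46.4 CPM in DKO and 42.3 to 78.6 CPM in controls (-0.63 ± 0.21, adjusted p = 0.175). All 9 genes of inducers of cumulus expansion were below 0 (median -1.05) and 0 passed edgeR's test. Of the 9, 1 had an unadjusted p under 0.05 and 1 was called lower by DESeq2. Gdf9 (-0.409) and Bmp15 (-0.595) of this list are also on the oocyte marker list. Egfr, the receptor for the epidermal growth factor-like signals that trigger expansion, was at 78.8, 75.9, 90.1 and 125 CPM in DKO 1 to 4, against 141, 168, 148 and 206 CPM in controls, without overlap (-0.85 ± 0.18, adjusted p = 0.0562). Ereg, one of these signals, was at 28.9, 55.2, 257 and 407 CPM in DKO 1 to 4, against 275, 464, 477 and 766 CPM in controls (-1.41 ± 0.77, adjusted p = 0.442), and DKO 1 and DKO 2 were again far below the rest. Limma-voom called 0 genes in each of these 7 hyaluronan lists, and with sample quality weights it called 2 higher for breakdown, 1 higher and 2 lower for receptors, 2 lower for proteases, 1 lower for inducers and 0 for the other 3. In the 5 later-numbered libraries the medians were -0.05 for synthesis and supply, 0.00 for breakdown, -0.25 for the inhibitor chains, 0.44 for proteoglycans and links, -0.28 for receptors, -0.41 for proteases and -0.68 for inducers. There edgeR called 1 gene of the receptor list, Stab2, a scavenger receptor gene named after its values were seen (1.72 ± 0.23, adjusted p = 0.0236; 1.30 ± 0.37, 0.131 in all 8), and 0 of the other 6 lists. An unadjusted p under 0.05 was met there by 4 receptors, 1 gene each of synthesis, breakdown and proteoglycans, 0 inhibitor chains, 2 proteases and 5 inducers. Over all genes tested in that fit, 2105 of 17206 met it. Has1 was at -0.50 ± 0.25 (adjusted p = 0.488) in these libraries, Cemip at 0.50 ± 0.23 (0.445), Adamts1 at -1.02 ± 0.21 (0.0867), Egfr at -0.68 ± 0.20 (0.198) and Ereg at -0.76 ± 0.28 (0.316). These lists share an ovary and an hCG time with the members, and the sums in the heat map are led by their most abundant genes.

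Cell type lists bear on which cells the ovaries held. Over all genes, 15.4% had an unadjusted p under 0.05 in edgeR. Of the 9 granulosa and cumulus markers tested 0 were called by edgeR, with 1 at an unadjusted p under 0.05 and called higher by DESeq2, and the median log2 fold change was 0.04. Of the 10 oocyte markers 0 were called by edgeR, DESeq2 or limma-voom or had an unadjusted p under 0.05 (median -0.37). Of 7 luteal markers 3 were called higher by edgeR, Oxtr, Ptgfr and Hsd3b1, where 0.759% of all genes were, 6 were higher at an unadjusted p under 0.05, and DESeq2 called 5 higher and limma-voom with quality weights 6. In the later-numbered libraries 2 were called, Oxtr and Ptgfr. The median log2 fold change of the list was 0.91, with a summed level of 14750 to 19010 CPM in DKO and 7766 to 13570 CPM in controls. That sum is led by Cyp11a1 (means of 7941 CPM in DKO and 4561 CPM in controls) and Hsd3b1 (5000 and 2656 CPM). Cyp11a1, which edgeR did not call (adjusted p = 0.0704), is also on the theca and stroma list. It is the 1 gene of that list with an unadjusted p under 0.05 in edgeR (0.00139), so that count repeats a luteal marker. The lists of theca and stroma, smooth muscle, endothelium, macrophages, lymphocytes, red blood cells and oviduct had 0 members called by edgeR. At an unadjusted p under 0.05 they had, in order, 1 higher, 3 lower, 3 higher, 1 lower, 0, 3 higher and 0. DESeq2, which called 6.56% of all genes, called 1 theca and stroma and 2 red blood cell markers higher and 1 macrophage marker lower. Limma-voom with quality weights, which called 9.79%, called 1 theca and stroma and 4 endothelial markers higher. All 6 smooth muscle markers were below 0, and 6 of 7 endothelial markers above it. The part of luteal cells in the lower Vcan of DKO was not tested.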

How the data were processed

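RNA of whole ovaries was sequenced in 8 stranded messenger RNA libraries, per the labels' protocols. The deposited files are raw counts per gene ID made with featureCounts 1.5.2 on exons with the reverse strand setting and the RefSeq annotation of GRCm38.p5, per the file headers. The submitters' processing notes also list STAR 2.4.2a and Trimmomatic 0.36 and 0.33, and the settings for reads that match several places are not given in the sources used here. Groups and replicate numbers came from the sample descriptions, and no sample was left out.

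Symbols were matched through a RefSeq table of GRCm38.p6 for 40290 of 41591 IDs. Genes were kept with filterByExpr (16870), scaled by TMM and tested with edgeR 4.0.16 (quasi-likelihood, robust, no covariate, two-sided), under R 4.3.3. The SE is the log2 fold change divided by the square root of F. Log2 CPM used a prior count of 2. DESeq2 1.42.0 and limma 3.58.1 gave alternatives, as did other scalings, filters and dispersions, each library left out, blocks and the later-numbered libraries alone. Same-group libraries differed beyond sampling noise (reduced chi-square of 25.05 to 143), so none was taken for a repeat deposit of another. The script was tested on simulated data. The members, lists and naming rule were chosen with earlier results of these data known, and the promoter motifs after the sequences were read. The naming rule took the 7 members, the called gene, the smallest adjusted p and the highest level per kilobase of each hyaluronan list, and 3 nearest patterns for members with an SD of log2 CPM of at least 0.5, of which 1 is not reported here.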

Additional observations from a re-analysis of the deposited data

Results flagged for a closer look

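Vcan in control 1 stood apart from its group. Its 1602 CPM was the lowest of the 4 controls, and the gap to the next, 2310 CPM, was 0.905 of the group's whole range, above Dixon's critical value for 4 values. Of 14 groups of 4 values examined, 7 genes in 2 genotypes, this was the 1 that passed, and chance flags about 1 in 20. Without control 1 the Vcan log2 fold change was -1.54 ± 0.25 (adjusted p = 0.0291).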

How the results depend on the processing

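Over the 20 alternatives no member changed direction. Vcan was called in 15 of 20, Cd44 in 4, Hapln1 in 2, Has2 and Ptx3 in 1 each, and Tnfaip6 and Itih5 in 0. Members called lower numbered 1, and 2 with no filter, 2 with DESeq2 and 2 with the title number set as a block; 1 was called higher with DESeq2 and 1 with quality weights. The 212 calls over all genes became 1107 with DESeq2, 1651 with quality weights and 526 with the title number set as a block. The members' median of -0.97 became -0.60 in the later-numbered libraries and -0.53 with quality weights. Leaving out 1 library gave 0 to 1 members lower, 2 (without control 2) to 506 (without control 3) genes called, and medians of -1.23 to -0.62. The cause was not tested.

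Whether the replicate numbers pair the samples is not settled. Deviations of same-numbered libraries correlated at 0.156, -0.359, 0.312 and 0.468, and 5 of 8 libraries correlated best with their own number. The negative value belongs to control 2, a later-numbered library, and DKO 2, which is not one. With the replicate block 4 members were called lower (Vcan, Cd44, Has2 at adjusted p = 0.0318 and Ptx3 at 0.0295), and 743 genes were called. Counts of 25 and 45 limit Has2 in DKO 1 and DKO 2.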
